A study of Mus musculus with 6 samples.

Results

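The genes described here are Pou5f1 and 9 genes grouped here as markers of the primed epiblast, chosen by symbol: Pou5f1, Fgf5, Otx2, Pou3f1, Foxd3, Utf1, Sall2, Sall4, Pim2 and Sfrp2. The grouping does not mean that each is particular to that state. Every probe set annotated to exactly 1 of these symbols was taken, which gave 15 probe sets of 10 genes among 45037 probe sets and 18193 genes. RNA came from derivatives of E14TG2a, a male mouse embryonic stem cell line of 129P2 background, cultured for 2 days in N2B27, a medium without serum that lets such cells move towards neural fate. Each line carried a doxycycline (Dox) inducible microRNA-style hairpin (shRNAmir) against Gmnn, which encodes Geminin, an inhibitor of DNA replication licensing. The GemKD cultures received Dox (500 ng per the labels, with no volume), and the uninduced control cultures carried the same hairpin with no Dox, so Dox and knockdown cannot be told apart. There were 3 independent experiments with 1 GemKD and 1 control array each, on the Affymetrix Mouse Genome 430 2.0 platform. Experiments 1 and 3 used the line with shRNAmir 11 and experiment 2 the line with shRNAmir 9. Whether a line was derived from a single clone was not given in the sources used here.

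Pluripotent cells pass from a naive state, like that of the early epiblast, through a formative state to a primed state, like that of the epiblast after implantation. Pou5f1 (OCT4) is kept throughout, whereas naive factors such as Nanog and Klf4 are turned down and Fgf5, Otx2 and Pou3f1 are turned up on leaving the naive state. In culture without the factors that hold the naive state, the same genes are passed on the way to neural progenitors, which lose Pou5f1 and gain Sox1 and Pax6.

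OCT4 and the factor encoded by Pou3f1 are both POU proteins and bind the octamer, so the DNA before the genes was searched for the letters that the members' own factor classes and their partner SOX2 bind. RefSeq start sites of build GRCm38.p6 matched 8 of the 10 genes, all but Pou3f1 and Sall4, with 13 starts in all. In the 250 bases before each start, on both strands, the octamer ATGCAAAT was found before 2 of the 13 starts, those of Pim2 and Sfrp2, and before 1.6% of all 32851 starts. The OTX letters TAATCC were found before 3 of them (1 each of Pou5f1, Otx2 and Sfrp2), against 6.25% of all starts, and the SOX letters ACAAAG before that of Fgf5 alone, against 16.5%. The forkhead letters TGTTTAC were found before none of the 13, against 3.17%. A match is a run of letters and not a shown binding site. The start regions of Fgf5, of Pim2, of Sfrp2 and the first listed start of Pou5f1 are shown as examples. In experiment 3 Fgf5 was 4.51-fold higher in its brighter probe set and Pim2 only 1.24-fold, while Sfrp2 and Pou5f1 were near level. The starts of Otx2 and Foxd3, also higher in experiment 3, are not shown. Whether motifs go with the array values was not tested. The regions shown lie, in the order named, at chr5:98253934-98254183, plus strand, at chrX:7878056-7878305, plus strand, at chr3:83766071-83766320, plus strand, and at chr17:35505782-35506031, plus strand. Capitals mark the octamer in Pim2, the octamer and the OTX letters in Sfrp2, and the SOX letters in Fgf5. The Pou5f1 region holds none of the 4 motifs.
Fgf5: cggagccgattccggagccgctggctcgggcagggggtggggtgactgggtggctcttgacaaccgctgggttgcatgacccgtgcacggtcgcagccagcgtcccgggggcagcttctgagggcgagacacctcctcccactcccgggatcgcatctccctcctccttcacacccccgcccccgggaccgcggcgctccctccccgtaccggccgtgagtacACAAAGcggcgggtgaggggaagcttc
Pim2: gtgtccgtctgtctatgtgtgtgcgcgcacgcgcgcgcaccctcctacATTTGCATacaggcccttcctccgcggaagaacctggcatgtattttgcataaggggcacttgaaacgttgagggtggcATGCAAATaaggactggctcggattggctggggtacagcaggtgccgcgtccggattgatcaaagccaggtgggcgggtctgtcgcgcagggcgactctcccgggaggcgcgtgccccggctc
Sfrp2: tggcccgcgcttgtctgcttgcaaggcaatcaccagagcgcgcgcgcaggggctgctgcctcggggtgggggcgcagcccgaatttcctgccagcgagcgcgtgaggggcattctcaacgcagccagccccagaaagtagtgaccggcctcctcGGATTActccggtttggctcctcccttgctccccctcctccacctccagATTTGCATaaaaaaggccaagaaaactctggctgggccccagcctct
Pou5f1: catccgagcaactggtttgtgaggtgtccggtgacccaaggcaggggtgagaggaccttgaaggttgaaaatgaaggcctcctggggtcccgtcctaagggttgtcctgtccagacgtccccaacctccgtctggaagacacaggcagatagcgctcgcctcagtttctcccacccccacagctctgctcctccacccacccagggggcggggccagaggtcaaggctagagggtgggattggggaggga

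The Pim2 octamers begin at -202 (minus strand) and -123 (plus strand) from the start, counting the base just before it as -1. That of Sfrp2 begins at -47 on the minus strand, and its OTX letters at -96. The SOX letters of Fgf5 begin at -27 on the plus strand. The G and C content of these regions was 70.8% for Fgf5, 62% for Pim2, 63.6% for Sfrp2 and 62% for Pou5f1, against a median of 52.4% over all starts.

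Before the members are described, the arrays themselves were checked. Array medians lay between 59.3 and 60.9. Gmnn (1417506_at) went from 3557 in control to 983 in GemKD in experiment 1, from 3477 to 1669 in experiment 2 and from 3463 to 1270 in experiment 3, so GemKD held 27.6%, 48% and 36.7% of the control signal, and each array went the way of its label. Both arrays of experiment 3 stood apart from the other 4 over many genes, so each result below is given by experiment. Of the neural markers that go with the labelled tissue, neurectoderm, Sox1 had a mean of 2318 in experiments 1 and 2 and 550 in experiment 3, and Pax6 757 and 146. The same means were 23 and 16.4 for Hes5 and 29.3 and 28.6 for Lhx5, near the 20.1 below which a mean signal was called dim, and Olig3 read 11.4 and 6.4 on the arrays of experiment 3. All levels below are the deposited signals, which cannot be set against each other between probe sets. All differences are of log2(signal + 16). All 15 probe sets passed the filter on dim signals, a mean over 20.1. In such bulk RNA a change in the share of cells that express a gene and a change in its RNA per cell cannot be told apart.

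No called change was found in the 10 genes between GemKD and control. In limma, fitted over 31526 probe sets without regard to experiment, 0 of the 15 probe sets passed an adjusted p of 0.05, where 0.00317% of all probe sets did, and 0 had an unadjusted p under 0.05 (1.1% of all). With the experiment as a block 0 of 15 passed (0.00952% of all), and 3 had an unadjusted p under 0.05 (4.62% of all), both probe sets of Pou3f1 and 1 of Sall4. The GemKD and control arrays overlapped for every one of the 15, where 5.09% of all probe sets had no overlap. For 9 of the 15, both arrays of experiment 3 lay above all 4 others, and for 1 both lay below. There the overlap follows from the difference between experiments and says nothing about Dox. The median difference of the 15 was 0.01, and that of all probe sets tested was also 0.01. Without the block, differences between experiments stay in the error, so the intervals below are from the fit with the block.

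**Figure D1:**
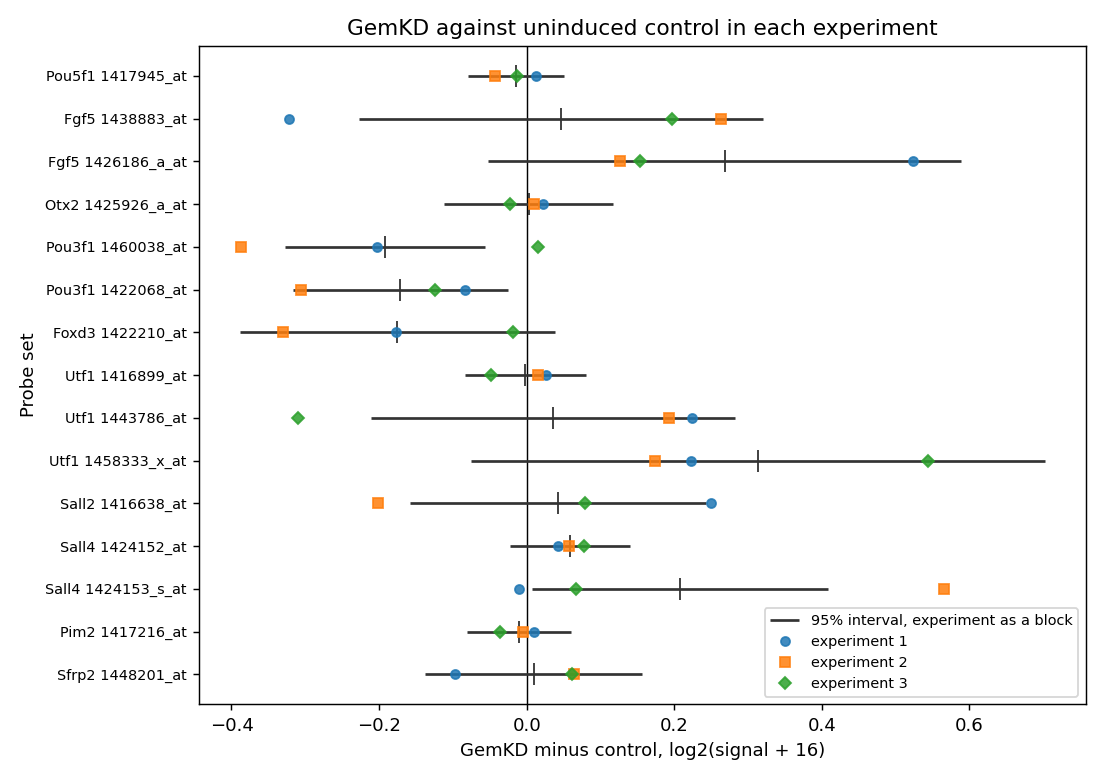
GemKD minus control for each member probe set (horizontal axis, log2(signal + 16)) in experiment 1 (circles), 2 (squares) and 3 (diamonds). The vertical tick is the mean of the 3 and the line is the 95% interval of the limma fit with the experiment as a block. The points of Pou5f1, Otx2, Pim2 and Utf1 1416899_at lie within 0.05 of 0, whereas both probe sets of Pou3f1 lie lowest in experiment 2.

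Pou5f1, the POU factor on which all pluripotent states depend, had the steadiest signal of the 15. Probe set 1417945_at read 7387 in control and 7454 in GemKD in experiment 1, 7711 and 7482 in experiment 2, and 7403 and 7338 in experiment 3. The lowest of the 6 arrays was at 95.2% of the highest, and the groups overlapped, with means of 7500 ± 182.5 in control and 7425 ± 76.4 in GemKD (SD, n = 3). The GemKD difference was -0.01 (blocked 95% interval -0.08 to 0.05), so its interval reached no further than 1.06-fold. Experiment 3 differed from the other 2 by -0.03, with arrays inside their range.

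Fgf5, an FGF ligand that is a standard marker of the primed epiblast, had the widest range. Probe set 1438883_at read 121 in control and 93.8 in GemKD in experiment 1, 132 and 161 in experiment 2, and 577 and 664 in experiment 3. Probe set 1426186_a_at, which was dimmer, read 21.5 and 37.9, then 42.1 and 47.4, then 145 and 163. In both probe sets the arrays of experiment 3 were far above all others, and those of experiment 2 were above those of experiment 1. The difference between experiment 3 and the mean of experiments 1 and 2 was 2.17 (4.51-fold) in 1438883_at and 1.70 (3.25-fold) in 1426186_a_at. The pseudocount lowers such values in dim probe sets: the second was 2.08 with a pseudocount of 1 and 1.11 with 64. The GemKD difference in 1438883_at was 0.05 (SE 0.12 with the block, interval -0.23 to 0.32), with -0.32, 0.26 and 0.20 in experiments 1, 2 and 3. In 1426186_a_at it was 0.27 (interval -0.05 to 0.59), with 0.52, 0.13 and 0.15, so GemKD was higher in 3 of 3 experiments there. In experiment 1 the probe sets went opposite ways.

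Otx2, a homeobox factor of the epiblast and later of the anterior neural plate, separated the experiments and not the arms. Probe set 1425926_a_at read 1227 in control and 1247 in GemKD in experiment 1, 1673 and 1685 in experiment 2, and 2781 and 2737 in experiment 3. Within each experiment GemKD was between 98.4% and 101.6% of its control, while the 3 pairs did not overlap. The GemKD difference was 0.003 (blocked interval -0.11 to 0.12). Experiment 2 exceeded experiment 1 by 0.44, and experiment 3 exceeded the mean of both by 0.93 (1.90-fold).

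Pou3f1 (OCT6), a POU factor of the primed epiblast and neural progenitors, was higher in experiment 3 and, in experiments 1 and 2, had lower values in GemKD. The brighter probe set, 1460038_at, read 3340 in control and 2900 in GemKD in experiment 1, 3737 and 2853 in experiment 2, and 6158 and 6224 in experiment 3. GemKD thus held 86.8%, 76.3% and 101.1% of control. Probe set 1422068_at read 853 and 804, 1064 and 858, and 2298 and 2107, which is 94.3%, 80.6% and 91.7% of control. It was lower in GemKD in 3 of 3 experiments and the brighter probe set in 2 of 3.

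The Pou3f1 difference over the 3 experiments was -0.19 (blocked SE 0.06, interval -0.33 to -0.06) in 1460038_at and -0.17 (-0.32 to -0.03) in 1422068_at, with an adjusted limma p of 0.992 for each with the block. In experiments 1 and 2 alone, with the block, 0 of the 15 probe sets passed an adjusted p of 0.05 (0.0412% of all did), and 5 of 15 had an unadjusted p under 0.05 (8.53% of all), those of Pou3f1 and Foxd3 with 1443786_at of Utf1 and 1424153_s_at of Sall4. There 1460038_at had -0.30 (interval -0.42 to -0.18) and an adjusted limma p of 0.152 over all probe sets. With 1 probe set a gene, an alternative added after seeing the data, the same value had an adjusted limma p of 0.0426 over 14185 genes, of which 28 passed. In experiments 1 and 2 alone 1422068_at had -0.19 (interval -0.37 to -0.02, adjusted p = 0.544). The interaction of Dox with the hairpin in 1460038_at was -0.29 (SE 0.10), hairpin 9 having the lower value, with an adjusted limma p of 0.486. Hairpin 9 was used in experiment 2 alone, so this contrast cannot tell hairpin from experiment. Experiment 3 differed from the others by 0.95 (1.94-fold) and 1.29 (2.45-fold) in the 2 probe sets.

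Foxd3, a forkhead repressor needed for the epiblast and later for the neural crest, had the same order of experiments as Otx2. Probe set 1422210_at read 247 in control and 217 in GemKD in experiment 1, 329 and 259 in experiment 2, and 441 and 435 in experiment 3. The 3 pairs did not overlap, and within each the GemKD array was the lower. The GemKD difference was -0.18 (blocked interval -0.39 to 0.04, adjusted p = 0.992), and -0.25 (-0.48 to -0.03, adjusted p = 0.544) in experiments 1 and 2 alone. Lower values in all 3 experiments were found for 2 of the 15 probe sets, this one and 1422068_at of Pou3f1, and for 10.5% of all probe sets. Experiment 3 exceeded the others by 0.72 (1.64-fold).

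**Figure D2:**
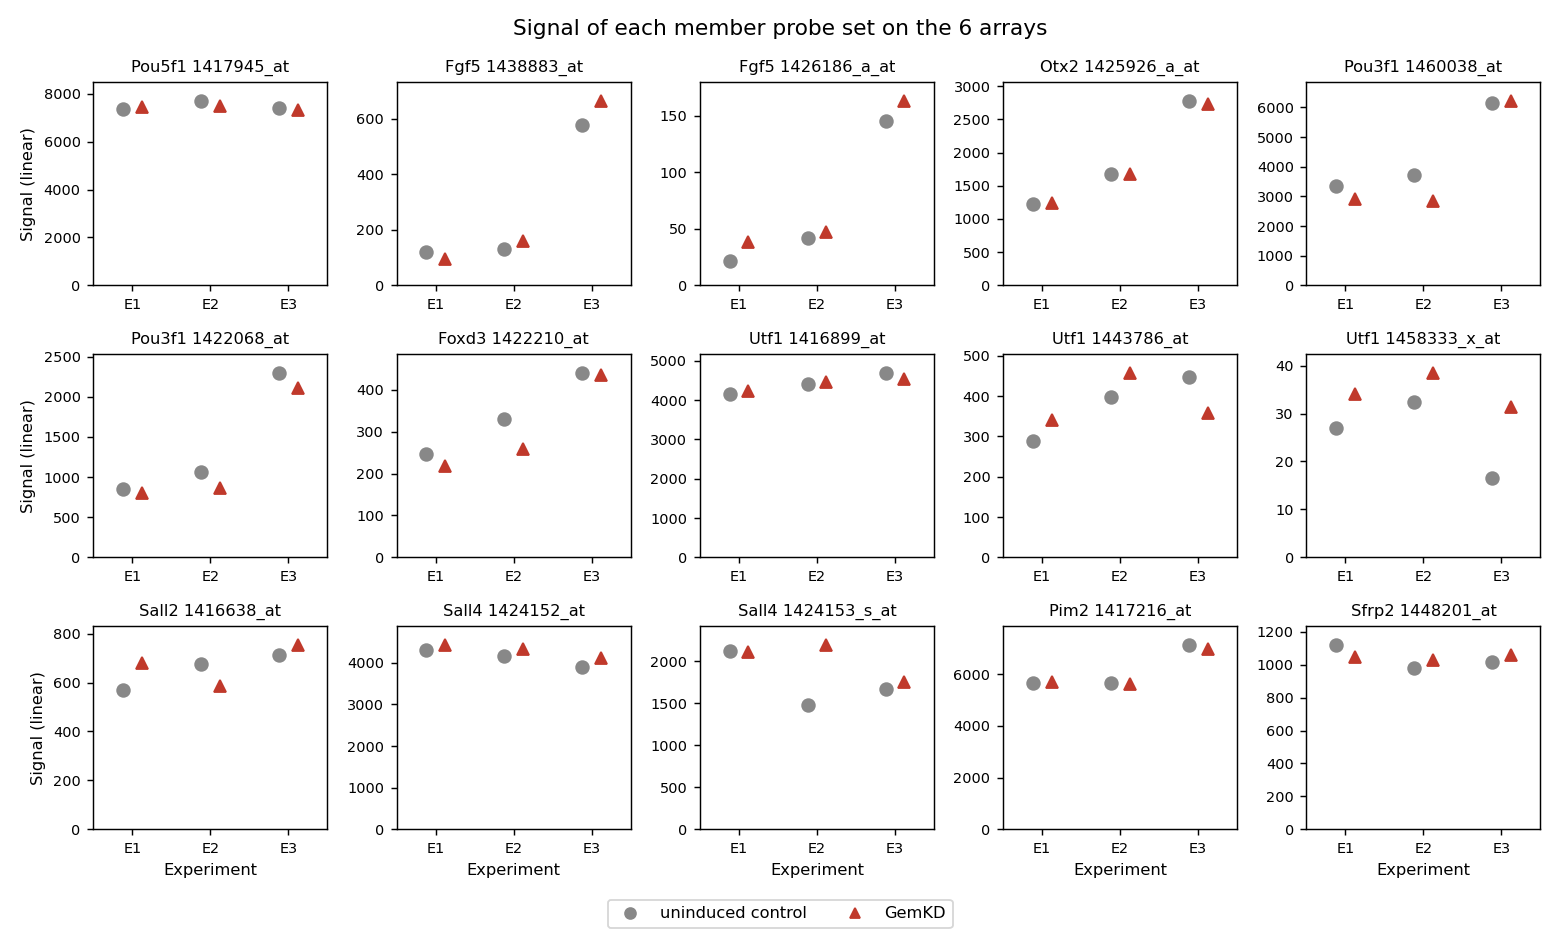
Deposited signal (vertical axis, linear, from 0, scaled to each panel) of each of the 15 member probe sets in experiments 1, 2 and 3 (E1, E2, E3), with grey circles for uninduced control and red triangles for GemKD, 1 array a point. Pou5f1 is level at about the same signal on all arrays, while Fgf5, Otx2, Pou3f1 and Foxd3 are highest on both arrays of experiment 3.

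Utf1, a chromatin factor of undifferentiated cells and a known target of OCT4 and SOX2, was level in its brightest probe set. Probe set 1416899_at read 4159 and 4237 in control and GemKD of experiment 1, 4412 and 4458 in experiment 2, and 4694 and 4540 in experiment 3. These lay in the order of the experiments with no overlap, but the lowest was at 88.6% of the highest. Its GemKD difference was -0.002 (blocked interval -0.08 to 0.08). The other 2 Utf1 probe sets, for which the annotation gave no accession, did not follow it. Signals of 1443786_at lay between 290 and 458, with a GemKD difference of 0.22, 0.19 and -0.31 in experiments 1, 2 and 3. The dim 1458333_x_at lay between 16.5 and 38.5 and was higher in GemKD in 3 of 3 experiments (0.31, blocked interval -0.08 to 0.70). Its suffix marks probes that may also bind other transcripts.

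Sall4 and Sall2 encode zinc finger factors, and Sall4 supports pluripotency together with OCT4. Probe set 1424152_at of Sall4 read 4305 and 4433 in control and GemKD of experiment 1, 4153 and 4324 in experiment 2, and 3904 and 4120 in experiment 3. GemKD was slightly higher in 3 of 3 experiments, as were 3 of the 15 probe sets in all and 13.5% of all probe sets, with a difference of 0.06 (blocked interval -0.02 to 0.14). The second, 1424153_s_at, read 2126 and 2111, 1480 and 2199, and 1676 and 1756. Its control of experiment 2 was the lowest of the 6, and the differences were -0.01, 0.57 and 0.07, so the probe sets of Sall4 disagreed in experiment 2, where 1424152_at had 0.06.

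The interaction of Dox with the hairpin in 1424153_s_at of Sall4 was 0.54 (SE 0.13), with an adjusted limma p of 0.0653. That adjusted p was 0.0436 with a pseudocount of 1, 0.0221 with 64, 0.0847 with quantile normalization, 0.886 with no filter and 1 with no replicate block. In 1424152_at the same interaction was -0.002 (adjusted p = 0.9999). Here too hairpin and experiment cannot be told apart. Among the 15 probe sets 0 passed in this comparison, and 0.336% of all did. Sall2 (1416638_at) read 571 and 682 in control and GemKD of experiment 1, 675 and 585 in experiment 2, and 713 and 755 in experiment 3. Its GemKD difference was 0.04 (blocked interval -0.16 to 0.24), with arrays of both arms interleaved, and experiment 3 exceeded the others by 0.22.

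Pim2, a serine and threonine kinase of the PIM family that favours survival and growth, was level between arms and slightly higher in experiment 3. Probe set 1417216_at read 5667 and 5704 in control and GemKD of experiment 1, 5656 and 5638 in experiment 2, and 7137 and 6960 in experiment 3. The 4 arrays of experiments 1 and 2 had an SD of 27.9 around 5666, and both arrays of experiment 3 lay above them, by 0.31 (1.24-fold). The GemKD difference was -0.01 (blocked interval -0.08 to 0.06). Its start region is the one shown with 2 octamers. Sfrp2, a secreted protein that binds Wnt ligands, read 1122 and 1048 in experiment 1, 982 and 1027 in experiment 2, and 1017 and 1061 in experiment 3. Its arrays overlapped across experiments and arms, with a GemKD difference of 0.01 (blocked interval -0.14 to 0.16) and a difference of -0.01 for experiment 3.

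Experiment 3 was next set beside experiments 1 and 2 for all members together. It is 1 experiment beside 2 and was singled out with these arrays already seen to differ, so the values are a description with no test. Its hairpin and line were those of experiment 1, and nothing else in the labels separates it, so what differed between the experiments was not tested. A probe set was counted as apart if both arrays of experiment 3 lay beyond all 4 others and the mean difference was at least 2-fold. On the higher side 3 of the 15 probe sets were apart, both of Fgf5 and 1422068_at of Pou3f1, and 0.584% of all probe sets were. On the lower side 0 of 15 were, against 1.38% of all. At 1.5-fold 6 of 15 were higher, adding Otx2, Foxd3 and the other probe set of Pou3f1 (3.25% of all), and 0 lower (5.17% of all). Otx2 and 1460038_at of Pou3f1 lay just under the 2-fold limit, and with the control array of experiment 2 left out both reached it, which made 5 apart. Regardless of size, both arrays of experiment 3 lay above all 4 others for 9 of the 15 (20.8% of all) and below them for 1, 1424152_at of Sall4 (25.7% of all).

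The members divided into those 4 genes and 6 others. The differences of the 6 probe sets of Fgf5, Pou3f1, Otx2 and Foxd3 ran from 0.72 to 2.17, and those of the other 9 from -0.31 to 0.31. The median of the 15 was 0.22 and that of all probe sets tested was -0.01. The division was alike in either arm. From GemKD arrays alone 1438883_at of Fgf5 had 2.29 and from controls alone 2.06, Otx2 had 0.91 and 0.95, 1422068_at of Pou3f1 had 1.33 and 1.26, and Foxd3 had 0.83 and 0.60. Beside experiment 1 alone, which shared the hairpin, the same 4 probe sets had 2.37, 1.15, 1.39 and 0.87, and beside experiment 2 alone 1.97, 0.71, 1.19 and 0.56. Arrays in the order of experiments 1, 2 and 3 with no overlap were found for 6 of the 15 probe sets, of Fgf5, Otx2, Pou3f1, Foxd3 and Utf1, and for 4.03% of all probe sets. Experiment 2 differs from experiment 1 in hairpin and line as well, which cannot be told apart from the experiment.

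**Figure D3:**
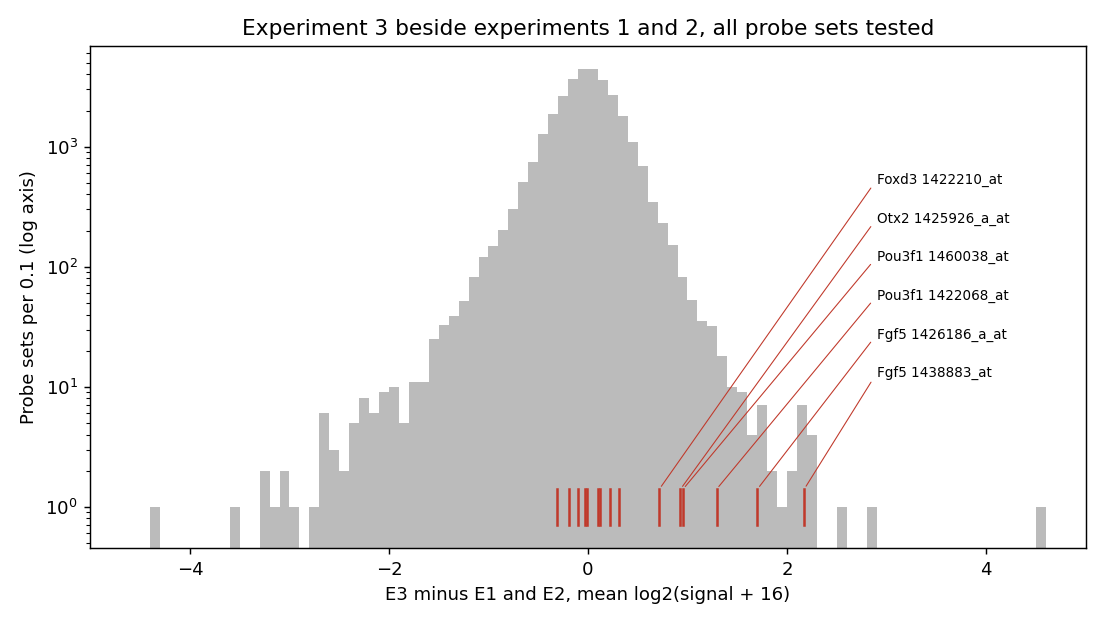
Difference between experiment 3 and the mean of experiments 1 and 2 (horizontal axis, log2(signal + 16)) for all 31526 probe sets tested, as a histogram with a log count axis, and red ticks for the 15 members. The 6 named probe sets of Fgf5, Pou3f1, Otx2 and Foxd3 lie between 0.72 and 2.17 in the right tail, and the other 9 between -0.31 and 0.31.

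Genes of the same state other than the members were compared through a list of 18 formative and primed epiblast genes. Of these 17 were above the filter, 0 were called in GemKD with or without the block, and the median GemKD difference was 0.02. In experiment 3, 1 was apart on the higher and 1 on the lower side, and the median difference was 0.10. Cldn6, a tight junction claudin, had means of 354 in experiments 1 and 2 and 1261 in experiment 3 (1.80), and Etv4, an ETS factor downstream of FGF signalling, had 233 and 447 (0.90). Tcf15, a bHLH factor of the formative state, went the other way with 2655 and 1132 (-1.22), as did Cdh2, the neural cadherin, with 994 and 496 (-0.98). The de novo DNA methyltransferases Dnmt3a and Dnmt3b, also on the list, had 0.28 and 0.19. Tdgf1 and Sox11, on the list as well, had -0.46 and -0.24.

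Of 14 naive genes, 6 were apart on the lower side in experiment 3 and 0 on the higher, with a median of -0.83. The other 8 did not meet the 2-fold rule. At a 1.5-fold limit 10 of the 14 were apart on the lower side and 0 on the higher. Esrrb (-0.02), Prdm14 (0.03) and Fgf4 (0.28) were not among these. Klf4 had means of 401 and 95.1 (-1.91), Klf2 2462 and 1104 (-1.15) and Zfp42 4288 and 1869 (-1.19). Nanog, the largest of them, had -2.61. Their summed signal was 7916 to 8363 in experiment 3 and 13703 to 16741 in the other arrays. Among 10 tested partners and targets of OCT4 and SOX2, Nanog and Zfp42, both also on the naive list, were apart and lower and 0 higher. The median was -0.19. Fbxo15 had -0.84 and Tdgf1, the Nodal co-receptor, -0.46. None of these lists had a member called in GemKD over the 3 experiments, with or without the block. With experiment 3 left out, in the blocked limma fit, Nanog was called higher in GemKD by 0.56 with an adjusted limma p of 0.00629. Lefty1, a Nodal inhibitor, was called by 0.999 with an adjusted limma p of 0.00426, and Olig3 of the neural list by 0.92 with an adjusted limma p of 0.0133. These p-values do not allow for the choice to leave out an experiment already seen to differ. Over all 3 experiments the blocked fit gave adjusted limma p-values of 0.371 for Nanog, 0.180 for Lefty1 and 0.992 for Olig3.

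Markers of other cell types moved with experiment 3 as well. Of 10 neural progenitor genes, 3 were apart and lower (Sox1 -2.04, Pax6 -2.24, Olig3 -3.22), while Fabp7 was higher on both arrays of experiment 3 than on all others (means of 57.3 and 125.7, 0.97) and Nes had 0.10. Their summed signal was 1767 to 2008 in experiment 3 against 4438 to 5430. Of 8 fibroblast or feeder genes 2 were apart and lower, Postn (-2.66) and Col1a2 (-1.08), while Thy1 had 0.66, with sums of 739 to 799 against 1362 to 1553. The sums of trophoblast markers were 743 to 784 in experiment 3 against 606 to 720, those of endoderm markers 699 to 728 against 578 to 860, and those of primitive streak and mesoderm markers 634 to 684 against 684 to 822, with 0 genes apart in these lists. Of the last list 3 of 7 genes with a probe set were above the filter, and Mixl1, Gsc and Kdr were under it on every array, Kdr at the bottom of the scale (a signal of 1 or less) on 2. The trophoblast factor Elf5 was also under it throughout. The part of these cell types in the members' values was not tested. Within pairs the summed signal of naive genes was higher in GemKD in 3 of 3 experiments, at 13703 and 16005 in control and GemKD of experiment 1, 15737 and 16741 in experiment 2, and 7916 and 8363 in experiment 3. Those of neural progenitor genes and of the partners and targets of OCT4 and SOX2 were also higher in 3 of 3, by less than the gap between experiment 3 and the others. The list of partners and targets shares Nanog, Zfp42 and Fgf4 with the naive list, so its sum is not independent of the naive sum. A sum is also weighted to its brightest genes and hides others. In experiment 2 Klf2 and Fgf4, among others of the naive list, were lower in GemKD. These sums were not tested.

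**Figure D4:**
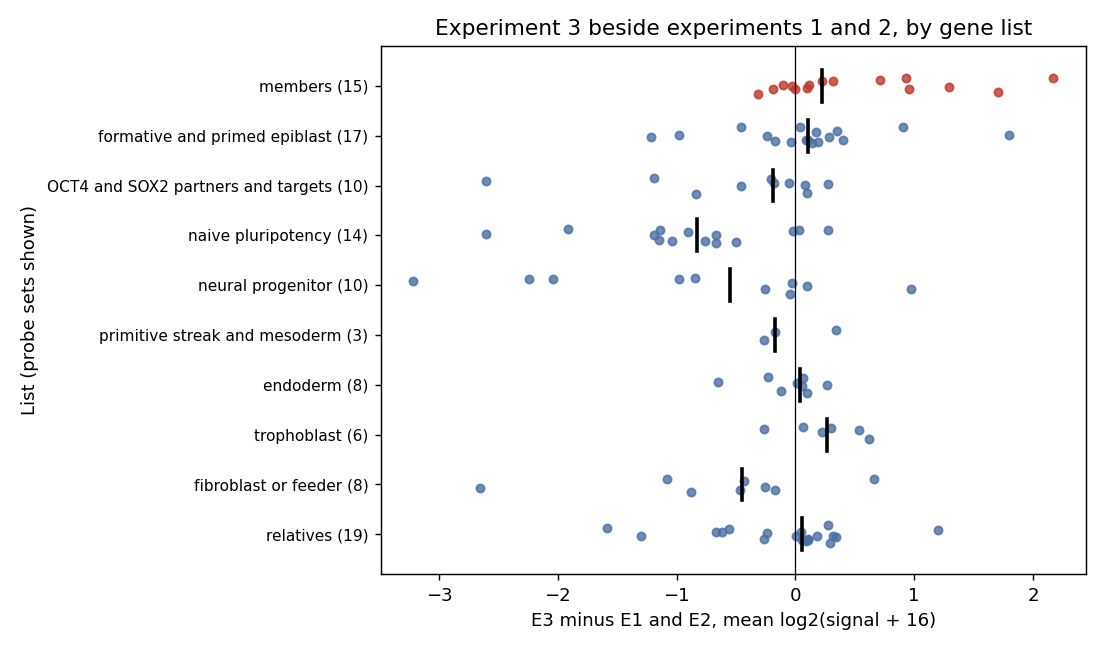
Difference between experiment 3 and the mean of experiments 1 and 2 (horizontal axis, log2(signal + 16)) for the member probe sets (red) and for the genes above the filter in each list (blue, brightest probe set a gene), with black bars at the medians. The medians were 0.22 for the members, -0.83 for naive pluripotency and -0.55 for neural progenitor genes.

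Relatives of the members did not share a direction. Of 19 relatives above the filter, 1 was apart and higher in experiment 3 and 2 were lower, with a median of 0.06, and 0 were called in GemKD. Pim1, the kinase closest in name to Pim2, had means of 1568 and 511 (-1.59), where Pim2 was slightly higher. Sall3, of the family of Sall4, had 229 and 82 (-1.30). Foxd4, a forkhead gene, had 54.3 and 146 (1.20), and the dim Foxd1 had -0.67.

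Genes whose profile over the 6 arrays was closest to that of Fgf5 and of Pou3f1 were looked up among 19836 probe sets brighter than the median. Likeness was measured as the root mean square difference of log2 values centred on each probe set's mean, so it rests on 6 arrays dominated by experiment 3. For 1438883_at of Fgf5 the closest were Myl9 (0.11), Tagln (0.17), Cldn7 (0.17), Calcr (0.21) and Kcnh8 (0.22). For 1460038_at of Pou3f1 they were Tex15 (0.05), Hes6 (0.05), Itm2a (0.05), Fgf13 (0.06) and Sugct (0.07). Itm2a read 816 and 706 in control and GemKD of experiment 1, 875 and 651 in experiment 2, and 1571 and 1554 in experiment 3. Among probe sets of the other member genes Foxd3 (0.15) and Otx2 (0.20) were closest to 1460038_at of Pou3f1, and 1422068_at of Pou3f1 (0.47) was closest to 1438883_at of Fgf5. Probe sets of the same gene were not compared with each other.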

How the data were processed

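Biotin-labelled RNA was hybridised, as the labels state, to the Affymetrix Mouse Genome 430 2.0 array. The deposited table holds 1 intensity on a linear scale for each of 45037 probe sets on each array. How the authors corrected, normalized and summarised these intensity values was not given in the sources used here. No further normalization was applied, since array medians lay between 59.3 and 60.9. Between 1.58% and 1.69% of values on each array were exactly 1 and were kept.

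The platform annotation gave exactly 1 symbol for 34945 probe sets, several for 932 and none for 9160. A probe set was tested if its mean over the 6 arrays was above the 30th percentile (20.1), which left 31526. Values were transformed as log2(signal + 16) and compared with limma 3.58.1 in R 4.3.3 (intensity trend, two-sided, Benjamini-Hochberg adjustment over all probe sets tested), without a block as the main fit. In the main fit p-values measure the spread between the 3 cultures of a group, and with the block the spread of differences within experiments. Experiments 1 and 2 alone give 2 such differences, so limma takes that spread largely from other probe sets. Arrays were paired by experiment, since each independent experiment had its own control in the same line. The pairing check, a correlation of each array's deviations from its group mean with those of its partner, gave 0.431, 0.38 and 0.656 for experiments 1, 2 and 3. Arrays of experiments 1 and 2 also correlated across the pairs (0.386 and 0.26), so the values set experiment 3 apart but do not separate experiments 1 and 2, and the pairing rests on the design. Experiment 3 beside experiments 1 and 2 was described without a test.

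All member probe sets are named, with Gmnn, up to 4 genes of each list by size of the experiment 3 difference, and the 5 genes most like Fgf5 and Pou3f1. Dnmt3a, Dnmt3b, Sox11, Fabp7, Nes, Hes5, Lhx5, Esrrb, Prdm14, Fgf4 and Lefty1 were named after their values were seen. The results were recomputed with the block, a hairpin covariate, quantile normalization, other filters, pseudocounts of 1 and 64, 1 value a gene, no trend and leaving out arrays or experiments. Members and lists were chosen with earlier results of these data known.

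The fits were tested on simulated data that kept the differences between experiments. Of added 1.5-fold changes the main fit called 10.4% and the fit with the block 72.2%. Of 2-fold changes they called 35.9% and 96.7%, so the main fit missed most changes of this size. Promoter letters were counted in RefSeq start regions of GRCm38.p6.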

Additional observations from a re-analysis of the deposited data

Results flagged for a closer look

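Sall2 (1416638_at) was the 1 member that went one way with hairpin 11 and the other way with hairpin 9. Its GemKD difference was 0.25 in experiment 1 and 0.08 in experiment 3, both with hairpin 11, and -0.20 in experiment 2 with hairpin 9. Hairpin 9 was used in experiment 2 alone, so hairpin and experiment cannot be told apart here. The interaction was -0.37 on the log2 scale, and it did not pass in limma (adjusted p = 0.9999). Of all 31526 probe sets tested, 20.9% had experiments 1 and 3 one way and experiment 2 the other.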

How the results depend on the processing

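Precision was limited by 3 arrays a group, and detection calls were not used here. The median 95% half-width of a difference was 0.37 without and 0.26 with the block. With the experiment as a replicate block 3 probe sets of all were called in GemKD in place of 1 (Hprt in both, with Gmnn and a probe set without a gene name added), and 0 members, so the block changed no member's call. Without the intensity trend 0 were called (568 at an unadjusted p under 0.05). Leaving out 1 array gave 0 to 1, and leaving out 1 experiment with the block 12 to 17 (13 without experiment 3). Experiments 1 and 2 alone with 1 probe set a gene, added after seeing the data, gave 28 of 14185 genes and 1 of 10 members, Pou3f1. No member was called under the other 19 alternatives. The hairpin interaction was called for 106 of 31526 probe sets, for 0 without a filter and for 0 with no replicate block. With a pseudocount of 1 it was called for 125 of the same 31526, and with 64 for 154. In each of the last 2 settings 1 of the 15 member probe sets passed, Sall4 1424153_s_at. The 3 probe sets apart in experiment 3 became 1 with only the brightest probe set of a gene, 6 at a 1.5-fold limit and 3 to 5 with 1 array left out. Of 195 experiment 3 differences recomputed under settings that can change them, 179 moved by less than the SD of the other 4 arrays, and none of the called ones changed sign. Quantile normalization, a hairpin covariate and filters left the GemKD count at 1. The cause of each move was not tested.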
